A study of Homo sapiens with 9 samples.

Results

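The genes described are the subunits, activators, inhibitor and assembly chaperones of the proteasome. They were taken by symbol, as every entry of the deposited expression table whose name begins with PSM, a letter from A to G and a number. That gave 49 of the 19389 entries. Of these, 48 belong to a class of the proteasome system, and PSMC3IP, a recombination protein named for its binding to a subunit, matched by name alone. The libraries, 3 in each of 3 groups, came from SW1353, a line grown from a human chondrosarcoma and used in place of chondrocytes. The PBSL + IL-1β cells were kept with PBSL, a preparation of Protaetia brevitarsis seulensis (beetle) larvae, for 2 h and were then given interleukin-1β (IL-1β) at 20 ng/mL for 20 h. The IL-1β cells were given the cytokine alone, and the untreated cells were given neither. All groups are the same single cell line, there was no group with PBSL alone, and neither the PBSL concentration of the sequenced libraries nor whether the replicates of a group were separate cultures is stated, so p-values measure only the spread between these libraries.

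The proteasome is the barrel-shaped protease that degrades ubiquitin-tagged proteins in the cytosol and nucleus. Its 20S core is a stack of rings, with alpha subunits (PSMA genes) forming the outer rings and beta subunits (PSMB genes) the inner ones, of which PSMB5, PSMB6 and PSMB7 carry the active sites. The 19S cap recognises, unfolds and feeds in the substrate through a ring of ATPases (PSMC genes) and a set of non-ATPase subunits (PSMD genes). Inflammatory cytokines, interferon-γ above all, induce PSMB8, PSMB9 and PSMB10, which take the places of PSMB5, PSMB6 and PSMB7 in newly built cores and give the immunoproteasome, known for making peptides for class I antigen presentation. The same cytokines induce PSME1 and PSME2, the alpha and beta subunits of PA28, an 11S cap that opens the core without ATP. PSMG1 to PSMG4 are chaperones that build the core, and PSMD5, PSMD9 and PSMD10 help to build the cap.

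Promoter sequences are shown first because 4 of the 5 cytokine-inducible genes hold one and the same 10-letter element near their start site. RefSeq promoter windows (GRCh38.p14, 250 bases before the start site to 50 after it, so 300 bases) were at hand for 43 of the 49 genes, 53 windows in all, and PSMA7, PSMB1, PSMB6, PSMB7, PSMD4 and PSMG3 were without one. The core letters of the interferon-stimulated response element, GAAA followed by any 2 bases and GAAA again, were searched on both strands. They were found in 7 of the 43, namely PSMB8, PSMB10, PSME1, PSME2, PSMA4, PSMB4 and PSMG4 (16.3%), against 4.04% of the 9518 genes tested below that have a window. Counted by window, the shares were 13.2% of the 53 and 3.57% of all 35116. In the first 4 of these and in PSMG4 the match read GAAAGCGAAA, a form picked out after the matches had been seen, which was present in 25 of the 9518 tested genes (0.263%) and in 35 of the 35116 windows (0.0997%). The counts over all genes and windows include the proteasome genes, and 20 of the 25 tested genes lie outside them. The lines below give 30 bases of each of these 5, written 5′ to 3′ on the strand that spells the element, with the element in capitals.

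PSMB8: aggaggaagtGAAAGCGAAAgccacagatc

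PSMB10: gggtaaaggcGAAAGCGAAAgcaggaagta

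PSME1: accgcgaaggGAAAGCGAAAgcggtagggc

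PSME2: cctggggagtGAAAGCGAAAgcccgggcga

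PSMG4: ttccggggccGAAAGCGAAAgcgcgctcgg

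The PSMB8 stretch lies at chr6:32844032-32844061 and is printed from the plus strand, opposite to the gene. The PSMB10 stretch lies at chr16:67936852-67936881 on the minus strand, the strand of the gene. PSME1 and PSME2 are neighbours on chromosome 14, 4394 bases apart, and their stretches lie at chr14:24136189-24136218 and chr14:24146619-24146648, both printed from the minus strand. The PSMG4 stretch lies at chr6:3258904-3258933 on the plus strand. Counted from the start site as 0, the element began at -4 in PSMB8, -21 in PSMB10, 5 in PSME1, -28 in PSME2 and -33 in PSMG4. The PSMB9 window held no match to these letters. A match is a description of the window and not a measured binding site. A loose kappa-B-like pattern, GGG followed by any 5 bases and CC, was in a window of 32 of the 43 genes (74.4%) against 79.9% of the tested genes, and of 2 of the 5 inducible genes. The gamma-activated-site letters TTCNNNGAA were in 8 of the 43 genes (18.6%) against 8.49% of the tested genes, and in 1 of the 5. The letters TGANNNNGC, as bound by NFE2L1 and its relatives, were in 28 of the 43 genes (65.1%) against 51.3%, and in 4 of the 5; all patterns were read on both strands, and overlap between them was allowed.

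The deposited values were normalised for transcript length and depth. Since they are no counts, the depth behind each value is unknown. They summed to between 523758 and 553196 per library. The 49 genes made up 0.835%, 0.875% and 0.869% of that sum in the PBSL + IL-1β libraries, 0.815%, 0.808% and 0.81% in the IL-1β libraries, and 0.774%, 0.769% and 0.752% in the untreated libraries. Genes were tested when they reached a value of 1 in at least 3 libraries, which kept 11924 genes and 47 of the 49. Fold changes are on the scale of log2(value + 1), fitted with limma, and a gene was called where its p, adjusted over all tested genes by the Benjamini-Hochberg method, was under 0.05. The cells were checked against markers of chondrocytes and of other cells. Of 9 chondrocyte markers, those that reached a value of 1 in at least 1 library numbered 3 in the PBSL + IL-1β group, 4 in the IL-1β group and 3 in the untreated group; COL9A1 was listed at 0 in the PBSL + IL-1β and untreated libraries, and COL2A1 did not pass 0.027. Their summed values ran from 12.7 to 14.5 with PBSL + IL-1β, 14.2 to 15.6 with IL-1β and 18.7 to 20.9 without treatment, and those of 4 epithelial markers from 53.8 to 73.3, 72.4 to 73.5 and 136 to 146 in the same groups. These sums rest on few genes. SOX9 was the largest chondrocyte marker, with means of 8.92, 8.8 and 12.0 in these groups. With IL-1β against untreated, ACAN was called higher and the other 3 tested chondrocyte markers lower. KRT8 and KRT18 gave nearly all of the epithelial sum, and EPCAM and CDH1 did not pass 0.489. Blood cells carry immunoproteasomes without a cytokine, and the summed values of 13 blood cell markers ran from 11.1 to 12.4 with PBSL + IL-1β, 14.5 to 15.2 with IL-1β and 13.5 to 14.2 without treatment. CD3D was the largest of the 13, with means of 4.91, 7.42 and 6.3 in these groups, and PTPRC did not pass 0.393. The part of the markers in the results below was not tested.

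IL-1β raised all 5 inducible genes, and with PBSL given first they stood between the IL-1β and the untreated levels. PSMB8, the inducible counterpart of PSMB5, had values of 32.3, 28.2 and 27.1 in the PBSL + IL-1β libraries, 35.1, 35.0 and 35.7 in the IL-1β libraries and 23.6, 21.9 and 24.8 in the untreated libraries. PSMB9, the counterpart of PSMB6, had 29.7, 23.0 and 23.1 with PBSL + IL-1β, 33.2, 35.7 and 33.9 with IL-1β and 13.7, 15.2 and 17.2 without treatment. PSMB10, the counterpart of PSMB7, had 37.0, 31.6 and 27.8 with PBSL + IL-1β, 38.5, 37.8 and 38.7 with IL-1β and 16.4, 16.5 and 18.6 without treatment. For each of these 3 genes the 3 groups did not overlap. PBSL library 1 was the highest of its group in all 3 and lay nearest to the IL-1β libraries. The same held for the PA28 genes. PSME1 had 150.1, 117 and 121 with PBSL + IL-1β, 164, 169 and 157 with IL-1β and 94.6, 97.6 and 99.4 without treatment. PSME2 had 174, 149 and 149 with PBSL + IL-1β, 212, 215 and 199 with IL-1β and 109.6, 110.3 and 116 without treatment. PSME3, which encodes the nuclear 11S cap PA28γ, had 85.0, 85.9 and 81.4 with PBSL + IL-1β, 84.2, 82.1 and 81.9 with IL-1β and 82.7, 78.2 and 86.0 without treatment, and its 3 groups overlapped.

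**Figure D1:**
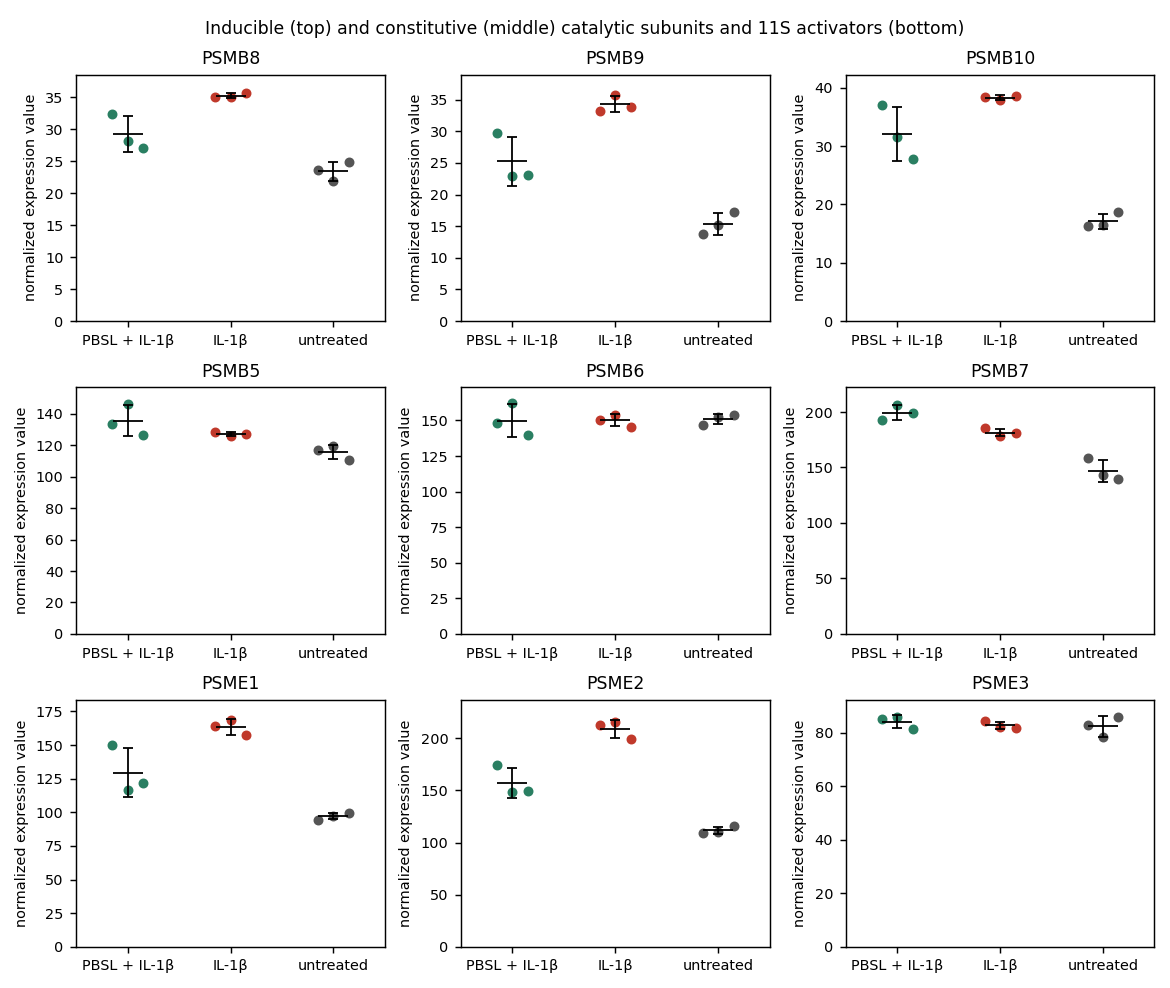
Normalised expression values of the 3 inducible catalytic subunits (top), their constitutive counterparts (middle) and the 11S activators (bottom) in every library; points are libraries, and lines with bars are the mean and SD of 3. The IL-1β libraries of PSMB8 sit between 35.0 and 35.7, above the PBSL + IL-1β libraries at 27.1 to 32.3 and the untreated libraries at 21.9 to 24.8.

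In IL-1β against untreated cells, 8 of the 47 tested genes were called higher and 1 lower, where 32.1% of all tested genes were called, 16.2% higher and 16.0% lower. The median log2 fold change of the 47 was 0.02, beside -0.01 over all tested genes. In 14 of the 47 all IL-1β libraries lay above all untreated ones and in 6 below, where 52.8% of all tested genes were so separated, 25.7% above and 27.1% below. The count of higher calls was thus near the background share. The 5 inducible genes were all among the 8. PSMB10 and PSMB9 rose by 1.12 on the log2 scale (SE 0.0885, adjusted p = 1.69e-06) and 1.11 (SE 0.1, adjusted p = 5.17e-06), a gain of 123% in the mean value of each. PSME2 rose by 0.90 (SE 0.0645, adjusted p = 7.46e-07), PSME1 by 0.74 (SE 0.0803, adjusted p = 2.36e-05) and PSMB8 by 0.57 (SE 0.0699, adjusted p = 6.49e-05). All 5 calls held under each of the 17 alternative settings. PSMB8 and PSMB9 overlap on opposite strands of chromosome 6 (hg38, 32840717 to 32844703 and 32844136 to 32859585), and PSMB8-AS1 overlaps both, so without stated use of strand in the counting their reads cannot be fully told apart. In bulk RNA, a smaller share of cells expressing a gene and less RNA per cell cannot be told apart either.

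Among the 14 tested constitutive subunits of the 20S core, IL-1β raised PSMA6 and PSMB7. PSMA6, a subunit of the alpha ring, had 225, 223 and 230.2 in the IL-1β libraries, against 165, 155 and 166 in the untreated libraries. The 2 groups did not overlap, and the rise was 0.48 on the log2 scale (SE 0.0502, adjusted p = 1.88e-05). PSMA6 lies on chromosome 14, 84017 bases from NFKBIA, the gene of the NF-κB inhibitor IκBα, and 4 annotated pseudogenes carry its name. PSMB7, which holds the trypsin-like active site, had 185, 178 and 181 with IL-1β, against 158, 143 and 139.7 without treatment, a rise of 0.30 (SE 0.0551, adjusted p = 0.00125). The PSMB7 groups did not overlap either. The other 2 constitutive active-site genes did not pass the test. PSMB5 had 128, 126 and 127 with IL-1β, against 117, 119.9 and 111 without treatment (0.14, adjusted p = 0.0951). PSMB6 had 150.3, 154 and 146 with IL-1β, against 147, 152 and 154 without treatment (-0.01, adjusted p = 0.91). Across all 14, the log2 fold changes lay between -0.10 in PSMB1 and 0.48, with a median of 0.01; limma called none lower, and none was lower at an unadjusted p under 0.05.

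The 19S cap held a single call. Of its 17 tested subunits, PSMD2, with PSMD1 the largest scaffold of the cap, was called higher, with 302, 305 and 298 in the IL-1β libraries against 268, 252 and 255 in the untreated libraries, a rise of 0.22 without overlap (adjusted p = 0.00367). The other 16 lay between -0.05 (PSMD1) and 0.13 (PSMD12), and the 6 ATPases between -0.01 (PSMC2) and 0.06 (PSMC4). None of the 17 was lower at an unadjusted p under 0.05. Of the assembly chaperones, none of the 4 for the core and none of the 3 for the cap was called by limma, and PSMD5 alone had an unadjusted p under 0.05 (-0.15, adjusted p = 0.068). PSMG3, a core chaperone, was at -0.17 (adjusted p = 0.197). PSMF1, which encodes PI31, a binding partner and in-vitro inhibitor of the core, was the 1 gene called lower, with 25.0, 27.4 and 27.4 in the IL-1β libraries against 31.4, 29.3 and 30.0 in the untreated libraries and no overlap. Its fall by 0.18 on the log2 scale (adjusted p = 0.0409) lost its call when any 1 of these 6 libraries was left out, at adjusted p between 0.054 and 0.175. PSME4, the PA200 cap, was at -0.11 (adjusted p = 0.199).

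**Figure D2:**
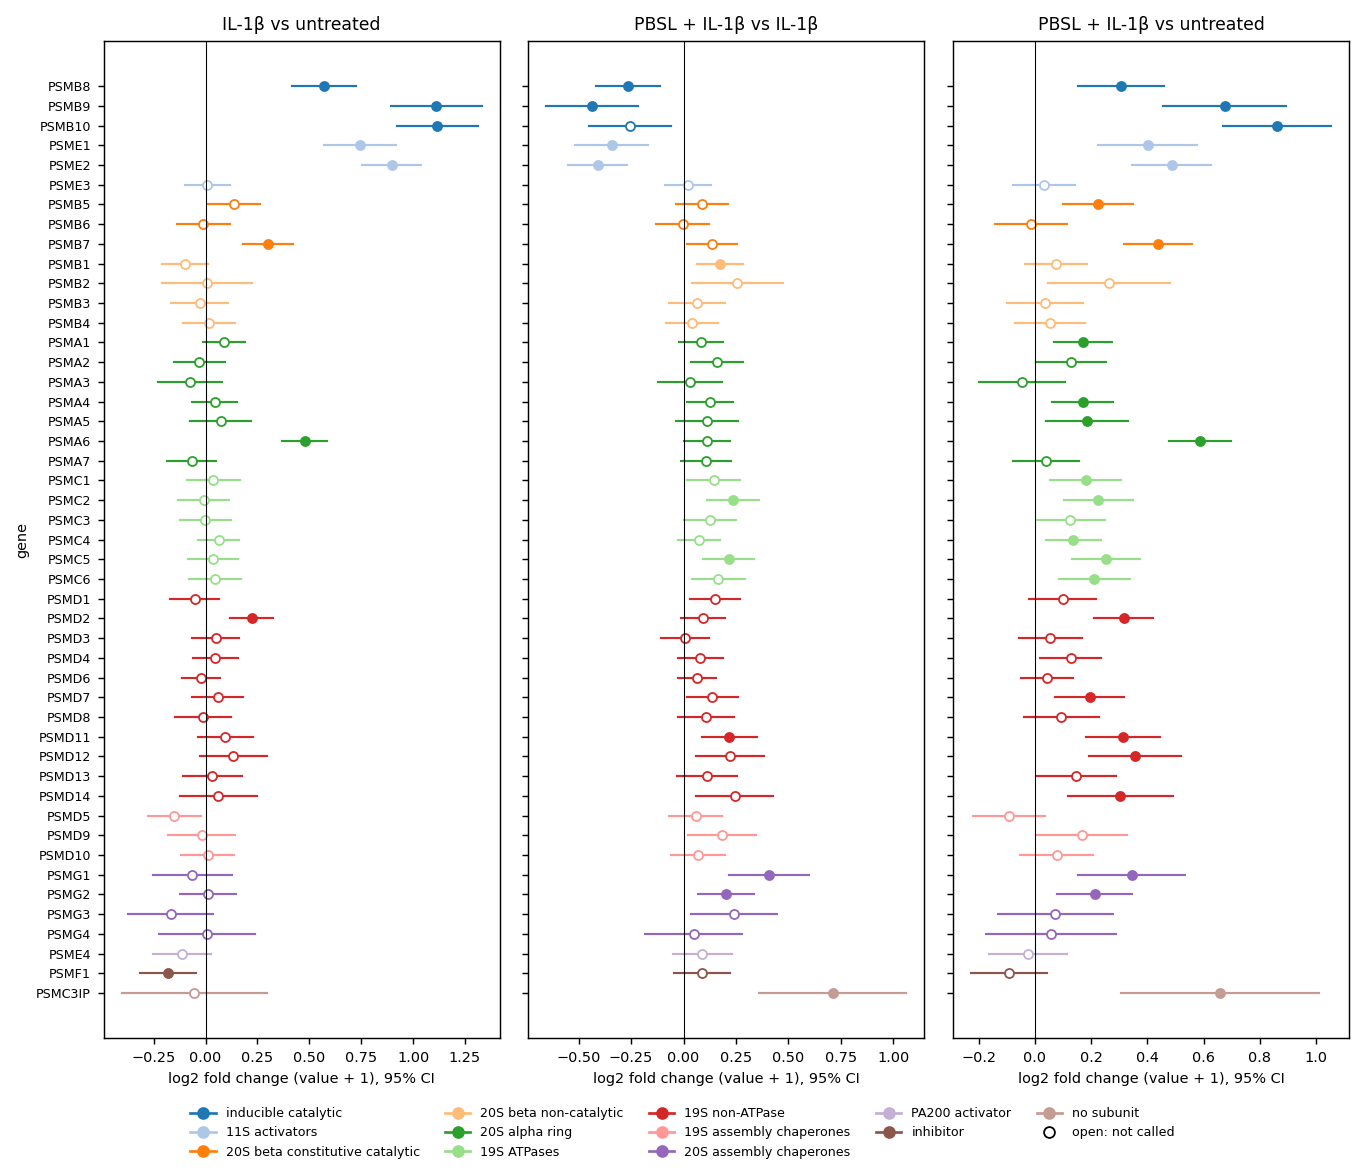
Log2 fold change of each of the 47 tested genes in the 3 comparisons, with 95% confidence intervals; filled points passed the limma test at an adjusted p under 0.05, and colours give the class. In the middle panel, PBSL + IL-1β against IL-1β, the 5 inducible genes lie between -0.44 and -0.26 and the others at or above 0, apart from PSMB6 at -0.003; each panel has its own horizontal scale.

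Taken on the values themselves, the ratio of an inducible subunit to the one it replaces does not depend on how a library was scaled. The log2 ratios further below have 1 added to each value, so they keep a small dependence on it. PSMB8 was 24.2%, 19.3% and 21.4% of PSMB5 in the PBSL + IL-1β libraries, 27.3%, 27.7% and 28.0% in the IL-1β libraries and 20.2%, 18.2% and 22.4% in the untreated libraries. PSMB9 was 20.1%, 14.1% and 16.5% of PSMB6 with PBSL + IL-1β, 22.1%, 23.1% and 23.3% with IL-1β and 9.34%, 9.96% and 11.2% without treatment. PSMB10 was 19.2%, 15.3% and 14.0% of PSMB7 with PBSL + IL-1β, 20.8%, 21.2% and 21.4% with IL-1β and 10.3%, 11.5% and 13.3% without treatment. In all 3 ratios the IL-1β libraries lay above both other groups, and the PBSL + IL-1β and untreated libraries overlapped for PSMB8/PSMB5 alone. On the log2 scale, with 1 added to each value, IL-1β exceeded untreated by 0.44 for PSMB8/PSMB5, 1.12 for PSMB9/PSMB6 and 0.82 for PSMB10/PSMB7. PBSL + IL-1β stood at -0.36, -0.43 and -0.39 against IL-1β for the same 3 ratios. Each of these 6 differences gave a 2-sided exact permutation p of 0.1, the smallest that 3 against 3 libraries allow, and 0.1125 after Benjamini-Hochberg adjustment over the 9 tests run, so none can reach 0.05. Against untreated cells, PBSL + IL-1β stood at 0.69 for PSMB9/PSMB6 and 0.42 for PSMB10/PSMB7 (exact p = 0.1 each) and at 0.08 for PSMB8/PSMB5 (exact p = 0.6; -0.001 without PBSL library 1).

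The constitutive genes remained the larger part of the catalytic transcripts in every library. PSMB8, PSMB9 and PSMB10 together made up 17.3%, 13.9% and 14.4% of the summed length-normalised values of the 6 catalytic genes in the PBSL + IL-1β libraries, 18.7%, 19.1% and 19.3% in the IL-1β libraries and 11.3%, 11.4% and 13.0% in the untreated libraries. The 3 groups did not overlap in this share. PA28 was abundant by comparison: the mean of PSME1 and PSME2 was 1.15, 0.86 and 1.0 times the median 20S constitutive gene with PBSL + IL-1β, 1.35, 1.37 and 1.31 times with IL-1β and 0.744, 0.766 and 0.84 times without treatment. Over all subunits, PSMD2 had the highest level per length with PBSL + IL-1β (322 ± 12.0, SD, n = 3) and with IL-1β (302 ± 3.81), and PSMB4, a structural beta subunit, the highest without treatment (279 ± 6.78). PSMB4 followed PSMD2 at 290.0 ± 22.0 with PBSL + IL-1β and 282 ± 1.72 with IL-1β, and in each group the libraries of the 2 genes did not overlap. PSME4 was the lowest tested subunit in each group, at 14.2 ± 1.0, 13.3 ± 0.401 and 14.4 ± 0.617 with PBSL + IL-1β, IL-1β and no treatment.

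**Figure D3:**
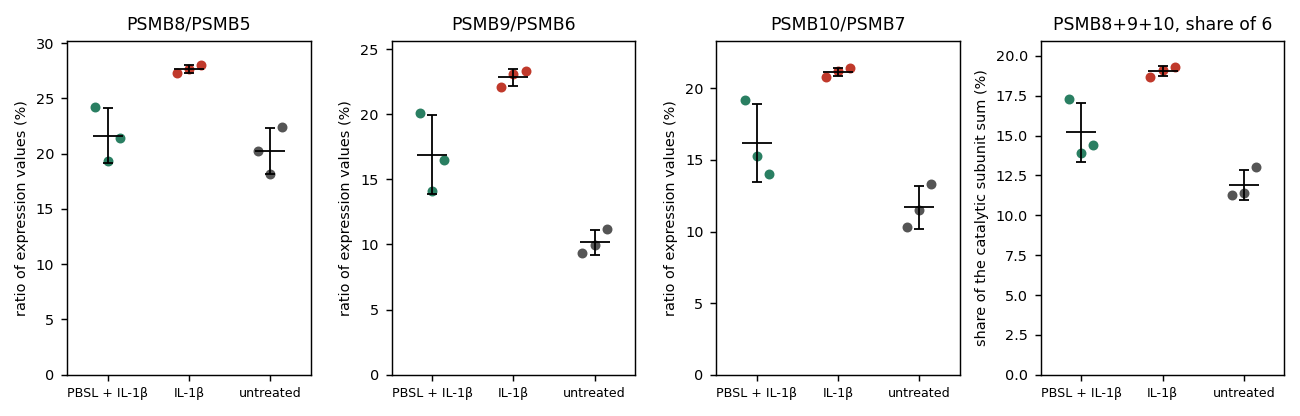
Ratio in percent of each inducible catalytic subunit to its constitutive counterpart, and the share of the 3 inducible genes in the sum of the 6 catalytic genes, per library, with the mean and SD of 3. The share is 13.9% to 17.3% with PBSL + IL-1β, 18.7% to 19.3% with IL-1β and 11.3% to 13.0% without treatment.

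With PBSL given before IL-1β, 4 of the 5 inducible genes fell, and the 7 other genes that were called rose. Of the 47 genes, 7 were called higher and 4 lower in PBSL + IL-1β against IL-1β cells. Over all tested genes, 22.5% were called, 11.5% higher and the rest lower. The count of calls among the 47 was thus near the background share. This comparison shares its IL-1β libraries with the one against untreated cells, so the values stand side by side and are not independent. After upper-quartile rescaling, 5 of the 47 were called higher and 5 lower, and of the calls over all genes 38.6% were higher, against 51.0% without it. PSMB9 fell by 0.44 on the log2 scale (SE 0.1, adjusted p = 0.0116), 26.3% in its mean. PSME2 fell by 0.41 (SE 0.0645, adjusted p = 0.00348), PSME1 by 0.34 (SE 0.0803, adjusted p = 0.0125) and PSMB8 by 0.27 (SE 0.0699, adjusted p = 0.0201). PSMB10 was at -0.26 with an adjusted p of 0.0574 and did not pass, although its libraries did not overlap either. The 95% intervals of PSMB9 (-0.65 to -0.22) and PSMB10 (-0.45 to -0.06) overlapped. PSME3 was at 0.02 (interval -0.09 to 0.13).

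PSME2 kept its call under all 17 alternative settings, and the other 3 did not. With genes of low value kept in the test, PSMB9, PSME1 and PSMB8 reached adjusted p of 0.0699, 0.0681 and 0.0679. Without PBSL library 2 they reached 0.0507, 0.0503 and 0.0663; PSMB8 also lost its call without PBSL library 3 (0.062) or any one IL-1β library (up to 0.0692), and PSME1 without IL-1β library 2 (0.0536). Without PBSL library 1, the one nearest to the IL-1β group, all 5 genes were called, at -0.55 for PSMB9, -0.48 for PSME2, -0.45 for PSME1, -0.36 for PSMB10 and -0.34 for PSMB8. Leaving that library out took the calls among the 47 genes to 24, with 19 higher and 5 lower, while the calls over all genes went to 3910 from 2684. Without IL-1β library 1, 2 or 3 the 47 genes held 6, 4 and 6 calls, and without PBSL library 2 they held 4.

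The called rises with PBSL were small and spread over the core, the cap and the chaperones. PSMG1, which pairs with PSMG2 to start the alpha ring, had 28.5, 32.7 and 37.2 in the PBSL + IL-1β libraries, against 24.2, 23.4 and 25.4 in the IL-1β libraries. It had the largest log2 fold change of the 46 tested proteasome genes, 0.41 (SE 0.0868, adjusted p = 0.00842), and its groups did not overlap. PSMG2 had 57.9, 62.7 and 63.9 with PBSL + IL-1β, against 53.0, 55.5 and 51.4 with IL-1β (0.20, adjusted p = 0.0353). The ATPase PSMC2 had 142, 148 and 159.9 with PBSL + IL-1β, against 134, 121 and 128 with IL-1β (0.23, adjusted p = 0.0139). The ATPase PSMC5 had 105, 119 and 107 with PBSL + IL-1β, against 94.4, 93.6 and 96.5 with IL-1β (0.22, adjusted p = 0.0184). In all 4 of these genes each PBSL + IL-1β library lay above each IL-1β library. PSMD11, a scaffold subunit of the cap, had 35.9, 39.1 and 39.7 with PBSL + IL-1β, against 33.8, 32.2 and 32.0 with IL-1β (0.22, adjusted p = 0.0247). PSMB1, a structural beta subunit, had 113, 119 and 125 with PBSL + IL-1β, against 103, 104 and 109 with IL-1β (0.17, adjusted p = 0.0287). These groups did not overlap either. Over the alternative settings the highest adjusted p was 0.0547 for PSMG1, 0.071 for PSMC2, 0.0722 for PSMC5, 0.0915 for PSMD11, 0.111 for PSMB1 and 0.129 for PSMG2; leaving out 1 library was enough to lose the call of each except PSMG1, whose call was lost when genes of low value were kept in the test. PSMC2 lost it without IL-1β library 2 alone (0.071), PSMC5 without PBSL library 2 or any one IL-1β library, and the other 3 without PBSL library 2 or 3 or any one IL-1β library.

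Outside the 5 inducible genes, 41 of 42 log2 fold changes were above 0 in PBSL + IL-1β against IL-1β cells, beside 6210 of 11924 over all tested genes. PSMB6 was at -0.003. The median of the 42 was 0.11, beside 0.01 over all tested genes. After median-ratio rescaling of the libraries, 40 of the 42 were above 0, after upper-quartile rescaling 38, and once dependence on length and GC content had been taken out 40. In the proteasome classes outside the 5, 24 of 41 genes had all PBSL + IL-1β libraries above all IL-1β libraries and 0 had them below, where 21.7% and 20.1% of all tested genes did so, 41.8% in either direction; limma called 6 of the 41 higher and 0 lower, and at an unadjusted p under 0.05 the counts were 20 and 0. By class, the median was 0.11 over the 14 core subunits, 0.14 over the 17 cap subunits and 0.22 over the 4 core chaperones. The members at the ends of each class were PSMA3 (0.03) and PSMA2 (0.16) in the alpha ring, PSMB4 (0.04) and PSMB2 (0.26, adjusted p = 0.0823) among the structural beta subunits, PSMC4 (0.07) and PSMC2 in the ATPase ring, and PSMD3 (0.01) and PSMD14 (0.24, adjusted p = 0.0585) among the non-ATPase subunits. PSMD14 is the deubiquitinase that removes the ubiquitin chain from the substrate. PSMB5 had 134, 146 and 127 with PBSL + IL-1β against 128, 126 and 127 with IL-1β (0.09, adjusted p = 0.286), PSMB6 148, 162 and 139.6 against 150.3, 154 and 146 (adjusted p = 0.978), and PSMB7 193, 206 and 199 against 185, 178 and 181 (0.14, adjusted p = 0.0981). Of these 3, the groups of PSMB7 alone did not overlap. The largest rise of all belonged to PSMC3IP, the matched gene that is no subunit, with 8.79, 16.1 and 14.8 in the PBSL + IL-1β libraries against 7.49, 7.65 and 7.17 in the IL-1β libraries (0.71, adjusted p = 0.0107), without overlap; the call was lost when genes of low value were kept in the test (0.0766).

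**Figure D4:**
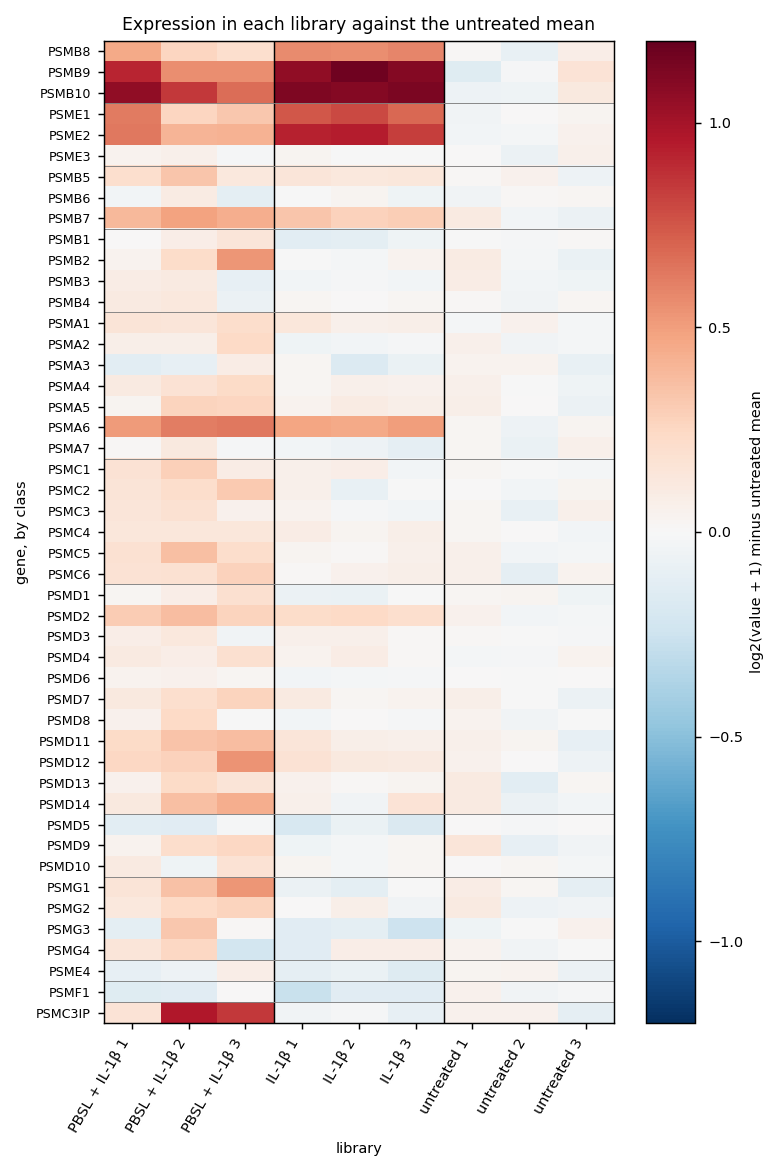
Log2(value + 1) of each of the 47 tested genes in each library minus the untreated mean of that gene, ordered by class from the inducible subunits at the top to PSMC3IP at the bottom; red is above and blue below the untreated mean. The IL-1β libraries are red in the 5 inducible genes, PSMA6 and PSMB7, and PBSL library 1 is redder than PBSL libraries 2 and 3 in the inducible genes, at 0.913 against 0.553 and 0.562 for PSMB9.

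Set against untreated cells, the cells given both agents had 24 of the 47 genes called higher and 0 lower, where 41.6% of all tested genes were called, 22.3% higher and 19.3% lower. The libraries of both groups also enter the other comparisons. At an unadjusted p under 0.05, limma had 30 higher and 0 lower, beside 3236 and 2729 of the 11924 tested genes. After upper-quartile rescaling the calls were 16 higher and 1 lower, and of the calls over all genes 38.7% were then higher, against 53.5% without it. The median log2 fold change was 0.17, beside 0.03 over all tested genes. In 26 of the 47 all PBSL + IL-1β libraries lay above all untreated ones and in 0 below, where 48.2% of all tested genes were separated, 22.1% below and the rest above. All 5 inducible genes stayed above untreated: PSMB10 by 0.86 (adjusted p = 1.43e-05), PSMB9 by 0.68 (adjusted p = 0.000248), PSME2 by 0.49 (adjusted p = 0.00011), PSME1 by 0.40 (adjusted p = 0.00196) and PSMB8 by 0.30 (adjusted p = 0.00454), with no overlap between the libraries. These 5 calls held under all 17 alternative settings. PSMA6 had 231, 249 and 252 with PBSL + IL-1β against 165, 155 and 166 without treatment (0.59, adjusted p = 3.22e-06), PSMB7 193, 206 and 199 against 158, 143 and 139.7 (0.44, adjusted p = 7.29e-05), and PSMB5 134, 146 and 127 against 117, 119.9 and 111 (0.22, adjusted p = 0.00849). In each of the 3 the groups did not overlap. PSMB6 was at -0.01 (adjusted p = 0.864).

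Of the 18 calls in the proteasome classes outside the 5, 10 were cap subunits. Limma called 10 of the 17 tested cap subunits higher and 0 lower (13 and 0 at an unadjusted p under 0.05), among them 5 of the 6 ATPases, the exception being PSMC3 at 0.13 (adjusted p = 0.0931), where 22.3% of all tested genes were higher. The ATPase calls of PSMC4, PSMC1 and PSMC6 held under 7, 12 and 14 of the 17 alternative settings: all 3 were lost after upper-quartile rescaling (0.226, 0.131 and 0.0563) and without untreated library 2 (0.0594, 0.0646 and 0.0513). PSMC4, PSMC1 and the lid subunit PSMD7 also lost theirs without untreated library 3 (0.105, 0.0832 and 0.0717), PSMC1 without PBSL library 2 (0.0836), PSMC4 without any one IL-1β library (up to 0.0533), and PSMD14 without untreated library 2 (0.0549). PSMD12, a scaffold subunit, had 36.2, 36.7 and 44.4 in the PBSL + IL-1β libraries against 31.3, 30.4 and 28.9 in the untreated libraries (0.36, adjusted p = 0.0025), and PSMD2 had 319, 335 and 312 against 268, 252 and 255 (0.32, adjusted p = 0.000287). The groups of both genes did not overlap. PSMD6 had the smallest cap value, 0.04 (adjusted p = 0.449). In the core, 6 of 14 constitutive genes were called higher, and the alpha ring ran from PSMA3 at -0.05 (adjusted p = 0.633) to PSMA6. The calls of PSMA6, PSMB7 and PSMB5 held under all 17 alternative settings. Those of PSMA5, PSMA4 and PSMA1 held under 4, 14 and 15 of the 17, and all 3 were lost after upper-quartile rescaling. The limma adjusted p of PSMA5 went up to 0.362. PSMB2 was at 0.26 with an adjusted p of 0.0501, and PSMB3 at 0.03. PSMG1 (0.34, adjusted p = 0.00785) and PSMG2 (0.21, adjusted p = 0.0154) were called, PSMG4 (0.06) was not, nor were PSMD5 (-0.09), PSMD9 (0.17, adjusted p = 0.0929), PSME4 (-0.02) or PSMF1 (-0.09).

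Genes that act with the proteasome were read from lists of the pathway. Of 10 tested regulators of the inducible subunits, all 10 were higher with IL-1β than without treatment, where 16.2% of all tested genes were. The median of the 10 was 0.87, beside -0.01 over all tested genes. RELB, an NF-κB subunit, rose by 2.62 (adjusted p = 1.22e-10), IRF1, the interferon regulatory factor that binds the PSMB9 and TAP1 promoters, by 1.22 (adjusted p = 3.04e-08) and NFKB1 by 1.00 (adjusted p = 6.49e-08). In PBSL + IL-1β against IL-1β cells, 2 of the 10 were lower and 0 higher, a share near the 22.5% of all tested genes called in this comparison, and 1 had a higher value at an unadjusted p under 0.05. STAT2, a signal transducer of type I interferons, had 23.7, 18.4 and 19.9 with PBSL + IL-1β against 28.5, 29.4 and 30.4 with IL-1β, and fell by 0.50 (adjusted p = 0.00419). Its groups did not overlap. IRF1 had 24.3, 22.8 and 25.3 with PBSL + IL-1β against 22.7, 22.9 and 24.2 with IL-1β, with overlapping libraries (0.05, adjusted p = 0.569), and SOCS1, an inhibitor of cytokine signalling, was at 0.20 (adjusted p = 0.0632).

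The class I peptide pathway, which carries proteasome products to the cell surface, was higher with IL-1β in 13 of 13 tested genes, where 16.2% of all tested genes were higher. The smallest p-values belonged to TAPBP, a loading chaperone (1.21, adjusted p = 9.75e-08), TAP2, a subunit of the peptide transporter (0.93, adjusted p = 1.25e-06), and ERAP1, a peptide-trimming enzyme (0.94, adjusted p = 1.68e-06). With PBSL added, 9 of the 13 were lower than with IL-1β and 0 higher, with none higher at an unadjusted p under 0.05. Of all tested genes, 22.5% were called in PBSL + IL-1β against IL-1β, 11.5% higher and the rest lower. The smallest p-values among the 13 were those of HLA-C (-0.62, adjusted p = 0.00403), HLA-B (-0.68, adjusted p = 0.00405) and B2M (-0.42, adjusted p = 0.00409), which encode class I chains. TAP1, the other transporter subunit, lies 505 bases from PSMB8 on chromosome 6. In the ubiquitin list, 5 of 13 genes were higher with IL-1β and 0 lower, where 16.2% and 16.0% of all tested genes were. None of the 13 was lower at an unadjusted p under 0.05. ISG15, a ubiquitin-like modifier, rose by 2.84 (adjusted p = 2.18e-06), its conjugating enzyme UBE2L6 by 1.16 (adjusted p = 1.4e-05) and UBA6, a ubiquitin-activating enzyme, by 0.47 (adjusted p = 0.000615). With PBSL added, 2 of the 13 were higher, the conjugating enzymes UBE2L3 (0.21, adjusted p = 0.0175) and UBE2D2 (0.24, adjusted p = 0.0337), and 3 were lower, all of the ISG15 system: ISG15 (116, 48.6 and 59.4 against 206, 190.4 and 207; -1.52, adjusted p = 0.00315), its activating enzyme UBA7 (-0.54, adjusted p = 0.00591) and UBE2L6 (-0.52, adjusted p = 0.0108). The share over all tested genes was again 22.5% called in PBSL + IL-1β against IL-1β, 11.5% higher and the rest lower. PBSL library 1 again lay nearest to the IL-1β group in STAT2 and ISG15.

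NFE2L1, the factor that restores proteasome genes when the proteasome is impaired, had 203, 164 and 193 in the PBSL + IL-1β libraries, 226, 223 and 224 in the IL-1β libraries and 132, 129.5 and 128 in the untreated libraries. The 3 groups did not overlap. It rose by 0.78 with IL-1β (adjusted p = 3.34e-06) and fell by 0.27 with PBSL + IL-1β against IL-1β (adjusted p = 0.0159), a call that leaving out any one IL-1β library or keeping genes of low value ended (up to 0.0663). Of the 9 tested genes of its pathway, 6 were higher with IL-1β and 0 lower, where 16.2% and 16.0% of all tested genes were. None of the 9 was lower at an unadjusted p under 0.05. Among the 6 were MAFF, a small MAF partner (1.66, adjusted p = 6.12e-09), and SYVN1, an endoplasmic reticulum ubiquitin ligase (0.42, adjusted p = 0.000114). With PBSL added, 2 of the 9 were lower and 0 higher, NFE2L1 and SYVN1 (-0.19, adjusted p = 0.0287), a share near that 22.5%. The SYVN1 call was lost without PBSL library 2 or 3 or any one IL-1β library (up to 0.0936), and SEL1L, the partner of SYVN1, was at -0.19 (adjusted p = 0.0637). None of the 9 was higher at an unadjusted p under 0.05. Of 15 tested assembly and associated proteins, 2 were higher with IL-1β, a share near the 16.2% of all tested genes, and 0 were lower. Among the 2 was ECPAS, a proteasome adaptor (0.24, adjusted p = 0.0263). PITHD1, a 20S-binding protein, was the 1 gene lower at an unadjusted p under 0.05 (-0.16, adjusted p = 0.0694). With PBSL added, 4 of the 15 were higher and 0 lower, with 1 lower at an unadjusted p under 0.05. Of all tested genes, 22.5% were called in PBSL + IL-1β against IL-1β, 11.5% higher and the rest lower. The share of calls in either direction among the 15 was thus near the background share. UCHL5, a deubiquitinase of the cap, had 14.0, 15.4 and 18.4 with PBSL + IL-1β against 12.4, 10.8 and 11.4 with IL-1β, and rose by 0.43 (adjusted p = 0.00777) with no overlap. USP14, the other cap deubiquitinase (0.23, adjusted p = 0.0315), PITHD1 (0.21, adjusted p = 0.0286) and RAD23B (0.19, adjusted p = 0.04) were also higher. The calls of USP14 and PITHD1 were lost without PBSL library 2 or 3 or any one IL-1β library (up to 0.0976 and 0.107). For RAD23B, UBE2L3 and UBE2D2, how the calls held under the alternative settings is not reported here. POMP, the chaperone that completes the core, was at 0.28 (adjusted p = 0.0532).

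Of the 49 genes, 2 did not reach the level for testing. PSMA8, the alpha subunit of the spermatoproteasome, was listed at 0 in all 9 libraries. PSMB11, the catalytic subunit of the thymoproteasome, was at most 0.028 in a library. PSMG4, whose promoter window holds the shared element, was at 0.01 with IL-1β against untreated (adjusted p = 0.965), 0.05 with PBSL + IL-1β against IL-1β (adjusted p = 0.775) and 0.06 with PBSL + IL-1β against untreated (adjusted p = 0.689). PSMB9 was called in all 3 comparisons. Its RefSeq window holds no such element, but its GENCODE 29 start lies close to the element of PSMB8. The part of the element in these values was not tested. Exons of 24 of the 49 genes overlap another gene in GENCODE 29, and 12 have 32 annotated pseudogenes that carry their name, of which PSMC1 has 13. How reads shared with such copies were counted is not given in the sources used here.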

How the data were processed

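The authors deposited signal values, 1 per gene and library, normalised for transcript length and depth. Whether they are FPKM or TPM is not given in the sources used here. Per the submitters' processing notes, Trim Galore, STAR, HTSeq and the hg38 build were used, with no versions; per the labels, the libraries were directional mRNA libraries. The members and lists were chosen with earlier results of these data known. On log2(value + 1), limma 3.58.1 (R 4.3.3; prior variance following mean level, 1 coefficient for each group, all 9 libraries, residual df 6, 2-sided) gave 3 comparisons. The fit was tested on simulated data in which each gene had the same spread in all groups. Unequal spread was thus not covered, and PSMB10 had an SD of 4.62 with PBSL + IL-1β and 0.432 with IL-1β. The values are not counts, so no count model was used. Ratios of catalytic subunits, as log2 with 1 added to each value, had exact permutation tests. Named were the 9 catalytic and 11S genes, the largest and smallest change of each class, every member called with PBSL + IL-1β against IL-1β, members under the filter and 3 genes by p of each other list, of which some are not reported here; IRF1 with PBSL, TAP1, POMP, RAD23B, UBE2L3, UBE2D2 and PSMB8-AS1 were added after their values were seen. The alternatives were a pseudocount of 0.1, no filter, median-ratio and upper-quartile rescaling, only the 2 groups compared, no variance trend, a replicate block, each library left out and, added after the data were seen, removal of a trend on length and GC content. The values sum to 523758 to 553196 per library. Positions come from GENCODE 29, promoters from RefSeq. Tables were made with Python 3.11.15, pandas 2.3.3, numpy 2.4.6, scipy 1.17.1 and matplotlib 3.10.9.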

Additional observations from a re-analysis of the deposited data

How the results depend on the processing

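Of 71 named gene calls and 47 named values that did not pass, each under 17 alternatives, none changed sign where a call was made; 133 of the 2006 combinations lost a call, 41 gained one, and 47 values called under neither setting changed sign. In IL-1β against untreated cells, where 9 genes were called, removal of the length and GC trend gave 15. The single gene called lower became 0 with no filter, with no variance trend and with the replicate block, 2 with upper-quartile rescaling, 3 with only the 2 groups compared and 7 after removal of that trend. Leaving out 1 library gave 8 to 12 calls, 8 to 10 higher and 0 to 2 lower. In PBSL + IL-1β against IL-1β, where 11 were called, keeping genes of low value gave 4, with 3 higher and 1 lower, and removal of the trend gave 11 higher. Leaving out 1 library gave 4 to 24 calls, 2 to 19 higher and 1 to 5 lower. In PBSL + IL-1β against untreated, where 24 were called higher and 0 lower, upper-quartile rescaling gave 16 higher and 1 lower. Removal of the trend gave 18 higher, of which 17 were among the 24, and 2 lower. The calls of PSMA1, PSMA5, PSMC2, PSMC4, PSMC6, PSMD7 and PSMG2 were lost with that trend removed. Leaving out 1 library gave 18 to 27 calls, all higher. The log2 difference in PSMB8/PSMB5 between these groups, 0.08, ran from -0.001 without PBSL library 1 to 0.16. With a pseudocount of 0.1, IL-1β exceeded untreated by 0.453 for PSMB8/PSMB5, 1.167 for PSMB9/PSMB6 and 0.853 for PSMB10/PSMB7. The share of higher calls over all genes was 51.0% in PBSL + IL-1β against IL-1β and 38.6% after upper-quartile rescaling. Libraries of different groups with the same number did not deviate together (correlations of -0.225 to 0.068), so the numbers are not taken as pairs; with the replicate block, 8, 9 and 22 members were called in the 3 comparisons. Except where an alternative tests fewer libraries or more genes, the cause was not tested. Depth is unknown, so small changes of low genes carry an error that cannot be stated.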

Other observations

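Outside the proteasome genes, 20 tested genes had the letters GAAAGCGAAA in their RefSeq promoter window. Of these, 10 were higher and 1 lower in IL-1β against untreated cells, where 15.8% and 15.6% of the 9521 tested entries with a window were higher and lower. Entries that repeat a symbol are counted apart here, unlike in the 9518 genes above. In PBSL + IL-1β against IL-1β, 4 were higher and 7 lower, where the shares over all were 11.7% and 10.7%. The looser pattern, GAAA followed by any 2 bases and GAAA again, was in the windows of 379 other tested genes, of which 119 were higher and 48 lower with IL-1β, and 35 higher and 76 lower with PBSL + IL-1β against IL-1β. The shorter form was picked out after the matches in the proteasome genes had been seen, and the comparisons share the IL-1β libraries, so these are counts with no test.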
